A study of Mus musculus with 8 samples.

Results

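The respiratory chain was followed through 107 protein-coding genes of the 35975 genes in the expression table. They comprise all 13 genes with the prefix mt-, which lie on the mitochondrial chromosome, and 94 nuclear genes. The nuclear members were taken by symbol, as genes that start with Ndufa, Ndufb, Ndufc, Ndufs, Ndufv, Uqcr, Cox4, Cox5, Cox6, Cox7, Cox8 or Atp5, together with Sdha, Sdhb, Sdhc, Sdhd, Cyc1 and Cycs. Ndufab1 and pseudogenes were left out. The rule uses symbols alone, but it was set with earlier results of these data known. The prefixes also bring in the 8 Ndufaf assembly factors of complex I, the factor Atp5s, the supercomplex factor Cox7a2l and several subunit genes known for tissue-restricted expression.

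The data are bulk RNA-seq of a tumor digest that was split by iron content. Fibrosarcoma cells had been implanted under the skin of syngeneic C57BL/6 mice, labelled wild type, and the dissociated tumors, freed of red cells by lysis, were loaded on magnetic columns. The 4 iron positive libraries come from the cells that the column retained and released on elution, and the 4 iron negative libraries from the cells that passed through. Libraries in each fraction carry the tags 3L, 3R, 4R and 5L. All groups share the host strain, the genotype and the tumor type, and no cell type was sorted. Age, time after implantation and the number of animals are not given in the sources used here. Nothing in the labels says that the libraries of a fraction come from separate animals, so each p-value reflects only how much these samples vary, which may in part be technical.

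The respiratory chain of the inner mitochondrial membrane passes electrons from NADH and succinate through complexes I, II and III, cytochrome c and complex IV to oxygen, and ATP synthase, often called complex V, uses the proton gradient that results. Complexes I, III, IV and V are built from subunits of both genomes, whereas complex II and cytochrome c are wholly nuclear. The mitochondrial genes are transcribed as long polycistronic RNAs by a dedicated polymerase and cut into single mRNAs, while each nuclear gene has its own promoter. Macrophages, a common cell type of tumors, are known to adjust respiration with their activation state.

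Libraries held 19.04 M to 24.31 M estimated counts. Of the 13343 genes with enough counts to be tested, edgeR called 1133 higher (8.49%) and 695 lower (5.21%) in the iron positive fraction at an adjusted p under 0.05. These 2 percentages are the background for every count of members called in this fit, and other fits have their own. All 20 macrophage markers were detected in every library, at a summed 40000 to 43880 CPM (counts scaled to a common library total, with TMM factors for library makeup) in the iron negative and 29880 to 39440 CPM in the iron positive libraries, and 1 was called higher and 7 lower. All 13 endothelial markers, 8 of which reached the count filter only with the iron positive libraries, were called higher (summed 69.51 to 119.1 against 243.8 to 1814 CPM), as were 8 of 11 pericyte and smooth muscle markers, for 5 of which the same holds (29.34 to 63.12 against 98.14 to 758.7 CPM) and 6 of 11 tested fibroblast and fibrosarcoma markers (134.8 to 409.7 against 510.1 to 4820 CPM). Of the other lists, 3 of 6 neutrophil markers tested were called higher, 1 of 5 T and NK cell and 1 of 3 B and plasma cell markers lower, and none of 5 red cell markers. The neutrophil markers Retnlg and S100a8 reached the count filter only with the iron positive libraries. The summed neutrophil list overlapped between the fractions (71.87 to 84.76 against 73.19 to 148.5 CPM). No adipocyte marker was tested, and Adipoq, Cidec, Lep and Cfd were at 0 in every iron negative library. In bulk samples, fewer cells of a type and less RNA per cell cannot be told apart.

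All 13 mt- genes passed the filter on low counts, as did 91 of the 94 nuclear members. Cox7b2 and Cox8c, which are testis-type subunits of complex IV, were listed at 0 in every library. Cox8b, the heart and muscle form of Cox8a, ranged from 0 to 0.09969 CPM and was not tested either. A summed 1.45% to 1.757% of the iron negative and 1.967% to 3.05% of the iron positive counts belonged to the 13 mt- genes. The 94 nuclear members together took 0.6625% to 0.7199% and 0.6474% to 0.6828%. Per length, the mt- genes summed to 27100 to 33240 TPM (counts scaled for transcript length and library total) in the iron negative and 37850 to 60670 TPM in the iron positive libraries, and the nuclear members to 17880 to 18940 and 17250 to 18160 TPM. The mt- sum thus exceeded the nuclear sum in every library. The mt- share did not overlap between the fractions, whereas the nuclear share did.

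The mitochondrial mRNAs are packed closely on chrM, and the boundaries bear on what could be measured separately. The longest overlap is between mt-Atp8 and mt-Atp6, the membrane subunits of ATP synthase, which share 43 bases on the same strand. The shared stretch is shown because reads that fall in it cannot be assigned to either gene alone. Capitals mark the start codon of mt-Atp6 and the stop codon of mt-Atp8 (chrM:7927-7969, + strand, GENCODE release 21 for mouse, GRCm38).
mt-Atp8 and mt-Atp6: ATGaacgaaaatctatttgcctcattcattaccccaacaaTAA
The overlap of mt-Nd4l with mt-Nd4 is 7 bases, that of mt-Atp6 with mt-Co3 is 1 base, and mt-Nd5 and mt-Nd6 overlap by 14 bases on opposite strands. Counts were not separated by strand. Further, 3 of the 13 mRNAs end in a lone T after their last full codon, so that the stop codon is completed only when the poly(A) tail is added. These are mt-Co3, mt-Nd4 and mt-Cytb, and their last 30 bases are shown with that T in capitals (chrM:9361-9390, chrM:11515-11544 and chrM:15259-15288, all + strand).
mt-Co3: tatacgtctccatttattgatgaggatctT
mt-Nd4: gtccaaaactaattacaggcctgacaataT
mt-Cytb: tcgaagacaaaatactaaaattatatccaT
All 3 were among the 6 mt- genes called higher. The other 3 called genes, mt-Nd1, mt-Nd2 and mt-Nd3, end in full stop codons. The log2 fold change of mt-Co3 (0.57 ± 0.11, SE) was below the median of the 13 (0.61). That of mt-Nd4l, which ends in a full stop codon and was not called, was 0.94 ± 0.30. A link between these ends and the calls was not tested.

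Of the 13 mt- genes, 6 were higher in the iron positive fraction and none lower, beside 8.49% of all genes called higher. These were the complex I subunits mt-Nd1, mt-Nd2, mt-Nd3 and mt-Nd4, the only mitochondrially encoded complex III subunit mt-Cytb, and the complex IV subunit mt-Co3. All 13 fold changes were positive, also under each other scaling tried, with a median log2 fold change of 0.61 (range 0.33 to 1.13), against a median of -0.01 over all genes tested. At an unadjusted p under 0.05 there were 12 (all but mt-Atp8), beside 31.1% of all genes in either direction. The same 12 were called under scaling on the macrophage markers and with DESeq2. Both settings also called more of all 13343 genes higher than the main fit (1133). The figures were 29.2% under macrophage scaling and 1703 genes with DESeq2. For 8 of the 13 the CPM values of the fractions did not overlap and the iron positive ones were higher, beside 11.2% of all genes.

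The mt-Nd genes encode the membrane arm of complex I, the NADH dehydrogenase. For mt-Nd2, levels in the libraries 3L, 3R, 4R and 5L were 502.3, 431.7, 555.9 and 484.5 CPM in the iron negative fraction and 1288, 1391, 843.3 and 744.6 CPM in the iron positive fraction. Every iron positive library lay above every iron negative one, with 3L and 3R far above 4R and 5L. The log2 fold change was 1.11 ± 0.21 (SE, n = 4 per fraction, adjusted p = 0.0183). For mt-Nd3 the levels were 116.2, 107.5, 122.1 and 114.4 CPM against 309.8, 349.9, 165 and 179.4 CPM, with a log2 fold change of 1.13 ± 0.24 (adjusted p = 0.022), the largest of the 13. The iron negative libraries lay within a narrow band and the iron positive ones again split into a high 3L and 3R and a lower 4R and 5L. For mt-Nd1, 819.5, 777, 958.8 and 824.5 CPM stood against 1896, 2061, 1374 and 1166 CPM (0.94 ± 0.18 on the log2 scale, adjusted p = 0.0185). For mt-Nd4, 1106, 969.4, 1191 and 1026 CPM stood against 2562, 2799, 1706 and 1499 CPM (0.9965 ± 0.2023, adjusted p = 0.0205). Neither gene overlapped between the fractions.

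The other 3 mt-Nd genes had positive fold changes that did not pass the threshold. They were mt-Nd4l (0.94 ± 0.30, adjusted p = 0.0705), mt-Nd6 (0.61 ± 0.18, adjusted p = 0.061) and mt-Nd5 (0.56 ± 0.16, adjusted p = 0.0549). The only mRNA encoded on the other strand is that of mt-Nd6, and its fold change was close to the median of the 13. Since counts were not separated by strand, this value is not a measure of that strand alone. For mt-Nd4l, the iron positive library 5L (136 CPM) lay within the iron negative range of 106.8 to 178.8 CPM, whereas 3L and 3R stood at 320.7 and 372.2 CPM. With the shared tag as a block in the edgeR model, mt-Nd4l passed (adjusted p = 0.0325).

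For mt-Cytb, the cytochrome b subunit at the heart of complex III, iron negative levels were 1291, 1150, 1383 and 1204 CPM and iron positive levels 3075, 3424, 2089 and 1764 CPM in the same library order. The groups did not overlap, and the log2 fold change was 1.04 ± 0.21 (adjusted p = 0.0198).

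The mt-Co genes encode the catalytic core of complex IV, cytochrome c oxidase. Their fold changes were smaller than those of most mt-Nd genes. For mt-Co3, 1764, 1664, 1939 and 1713 CPM in the iron negative libraries stood against 3010, 2762, 2455 and 2305 CPM (0.57 ± 0.11, adjusted p = 0.0183), without overlap. For mt-Co1, the most abundant of the 13 per length, 7663, 6250, 7689 and 7061 CPM stood against 10210, 10030, 8112 and 7703 CPM. These groups did not overlap, but the lowest iron positive value exceeded the highest iron negative value only narrowly, and the log2 fold change of 0.33 ± 0.13 did not pass (adjusted p = 0.135). For mt-Co2 the log2 fold change was 0.37 ± 0.14 (adjusted p = 0.1), with 678.1 to 1049 CPM in the iron positive against 656.4 to 753.1 CPM in the iron negative libraries, and it passed with the tag as a block (adjusted p = 0.0383).

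The 2 mitochondrial ATP synthase genes had their lowest iron positive level in library 4R. Levels of mt-Atp6 were 1677, 1299, 1381 and 1500 CPM in the iron negative and 2822, 2868, 1293 and 1943 CPM in the iron positive libraries, so that the iron positive library 4R was the lowest of all 8. The log2 fold change was 0.61 ± 0.24 (adjusted p = 0.123), and without the iron positive library 4R it was 0.80 and passed the threshold. For mt-Atp8 the log2 fold change was 0.38 ± 0.35 (adjusted p = 0.506), with 31.13 to 59.61 against 36.54 to 88.82 CPM. Its iron positive library 4R (36.54 CPM) was also the lowest of its group, but hardly below 5L (36.63 CPM).

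**Figure D1:**
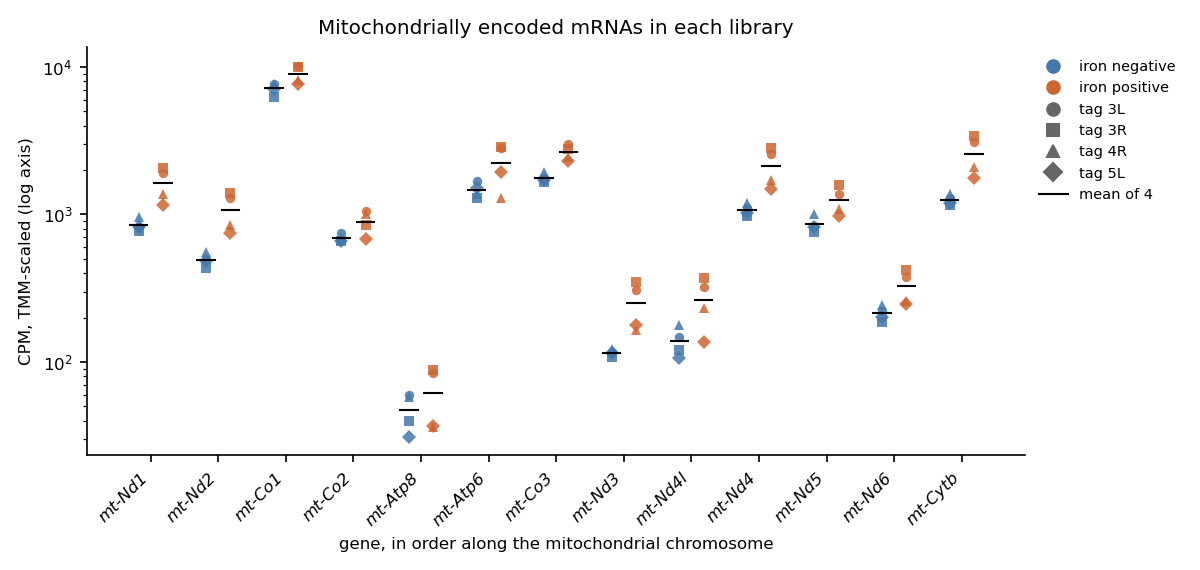
TMM-scaled CPM (log axis) of the 13 mt- genes in their order along the mitochondrial chromosome, with 1 point per library (colour for the fraction, shape for the tag) and a bar at the mean of 4 libraries. For mt-Nd1, mt-Nd2, mt-Nd3, mt-Nd4, mt-Cytb and mt-Co3 every iron positive point lies above every iron negative point, and the iron positive libraries 3L and 3R are usually the 2 highest.

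The 6 calls depended on having all 4 iron negative libraries. Without any 1 of the iron negative libraries 3L, 3R, 4R or 5L none of the 13 passed in edgeR, while 9 to 11 kept an unadjusted p under 0.05. In these fits the smallest adjusted p of any gene was 0.0403 to 0.063, and 26 genes were called higher and 12 lower without 5L and none without the others. The 13 fold changes stayed positive in each. Leaving out an iron positive library gave 6, 6, 7 and 10 calls (3L, 3R, 4R and 5L), the highest of them without 5L.

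The size of the difference varied between tags. Taking each iron positive library against the iron negative library of the same tag, mt-Nd2 differed by 1.36, 1.69, 0.60 and 0.62 on the log2 scale for 3L, 3R, 4R and 5L, and mt-Cytb by 1.25, 1.57, 0.60 and 0.55. For 11 of the 13 genes the largest such difference was that of tag 3R. The exceptions were mt-Co2, with its largest at 4R (0.53), and mt-Co3, with its largest at 3L (0.77). Among the iron positive libraries the median coefficient of variation of the mt- genes was 29.7%, against 9.43% among the iron negative libraries. For the nuclear members it was 7.82% and 7.31%, and for all genes tested 12.7% and 8.98%.

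Per length, the order of the mt- genes was led by mt-Co1, with a mean of 6800 TPM in the iron negative and 8853 TPM in the iron positive libraries. It was followed in the iron negative libraries by mt-Atp6 (4215 TPM) and mt-Co3 (4112 TPM), which did not differ beyond their spread, and by mt-Nd4l (2656 TPM). From mt-Co2 (1973 TPM) down to mt-Nd5 (669.9 TPM), each gene overlapped in its range with the next in the order. In the iron positive libraries mt-Cytb (3686 TPM), mt-Nd3 (3167 TPM) and mt-Nd1 (2932 TPM) stood above mt-Co2 (2646 TPM) by their means, with ranges that overlap. Across the 13 genes, Spearman's rho of the log2 fold change was -0.4 with the iron negative TPM, 0.19 with the order along the chromosome and -0.05 with the length. These genes share transcripts and libraries, and the values are descriptions only.

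The makeup of the mitochondrial mRNA pool differed between the fractions, with more mt-Nd and mt-Cytb and less mt-Co in the iron positive libraries. The share of mt-Nd counts among all mt- counts was 22.12%, 23.29%, 24.46% and 22.73% in the iron negative libraries 3L, 3R, 4R and 5L, and 28.67%, 30.96%, 27.44% and 25.55% in the iron positive libraries. The share of mt-Cytb was 7.797% ± 0.194 (SD, n = 4) and 10.46% ± 1.14, and that of the mt-Co genes 59.67% ± 0.346 and 52.11% ± 4.22. None of these 3 shares overlapped between the fractions. The mt-Atp share did, at 9.381% ± 0.834 and 9.272% ± 1.89. Accordingly, the ratio of mt-Nd to mt-Co counts, which needs no scaling between libraries, was 0.3685 to 0.4124 in the iron negative and 0.4634 to 0.6582 in the iron positive libraries, with the highest value in 3R.

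**Figure D2:**
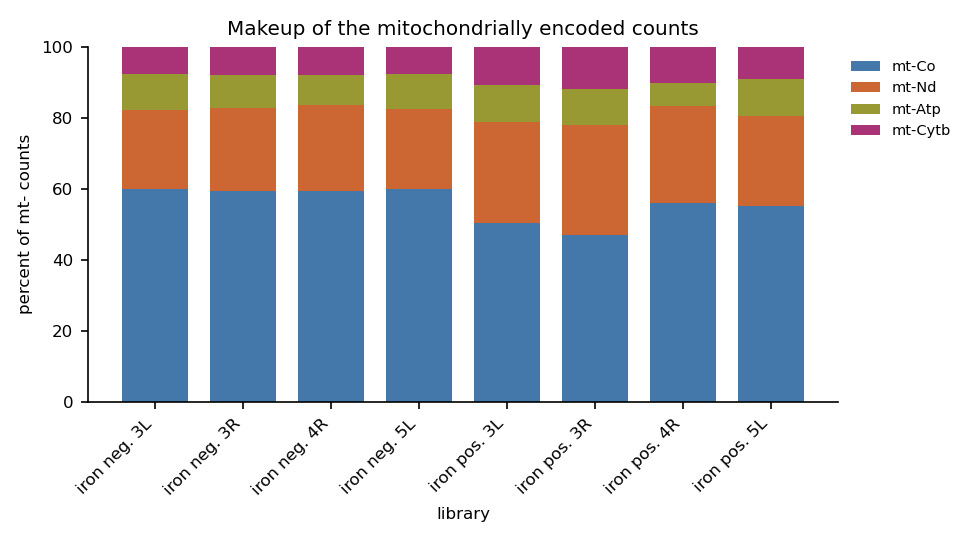
Percent of each library's mt- counts that belong to the mt-Co (3 genes), mt-Nd (7 genes), mt-Atp and mt-Cytb mRNAs, with 1 stacked bar per library. The mt-Co share is 59.31% to 60.03% in the 4 iron negative bars and 47.04% to 56.01% in the 4 iron positive bars.

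Few nuclear members were called. Of 91 tested, edgeR called 1 higher (Ndufa4l2) and 3 lower (Ndufc2, Ndufa13 and Uqcrc2) in the iron positive fraction, beside 8.49% and 5.21% of all genes, so both shares are below the background. The median log2 fold change was -0.08 and the interquartile range 0.115, against 0.37 for all genes. Negative fold changes were found for 77 members and positive ones for 14, but this direction turned with the scaling. Scaled on the 20 macrophage markers, 88 of the 91 were positive, with 16 called higher and none lower (beside 29.2% and 0.472% of all genes), and the median of all genes itself shifted to 0.28. Relative to the median of all genes, the nuclear median was -0.07 under TMM and -0.08 under macrophage scaling, and the mt- median 0.61 and 0.63. With the tag as a block, 8 nuclear members were lower (beside 9.39% of all genes) and 1 higher (beside 12.8%). For 11 nuclear members the fractions did not overlap with the iron positive values lower, beside 10.3% of all genes, a share close to the background.

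**Figure D3:**
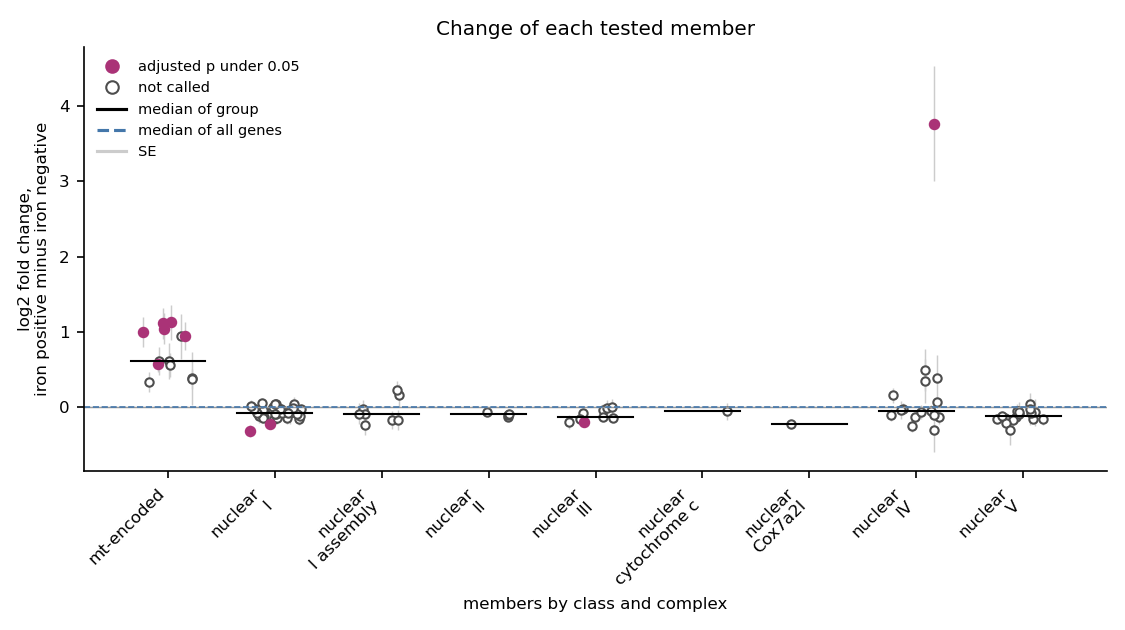
Log2 fold change (iron positive minus iron negative, TMM scaling) of each tested member, by class and complex, with SE as grey lines, filled points for an adjusted p under 0.05 and a black bar at each group's median. The mt- genes range from 0.33 to 1.13, whereas the nuclear groups have medians between -0.23 and -0.05. The point at 3.77 is Ndufa4l2. Under macrophage scaling 88 of the 91 nuclear points lie above 0.

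The 35 nuclear subunits of complex I had a median log2 fold change of -0.08, and 2 were lower. Ndufc2, an accessory subunit of the membrane arm, was at 72.83, 66.68, 60.72 and 66.13 CPM in the iron negative libraries 3L, 3R, 4R and 5L and at 59.61, 51.72, 47.96 and 54.72 CPM in the iron positive libraries. Every iron positive value was the lower of its tag, and the groups did not overlap. Its log2 fold change was -0.32 ± 0.08 (adjusted p = 0.0373), and without the iron negative libraries 3L, 3R, 4R or 5L or the iron positive 3R or 4R, each alone, it did not pass, nor with limma voom (adjusted p = 0.0642). Ndufa13, also known as GRIM-19, is an accessory subunit with 71.02, 61.9, 62.46 and 64.57 CPM against 60.31, 54.39, 52.8 and 54.11 CPM, without overlap. Its log2 fold change of -0.23 ± 0.06 passed narrowly (adjusted p = 0.0494). It lost the call in 7 of the fits that leave out a library, all but that without the iron positive 3L, and with relative log expression (adjusted p = 0.0575), library totals (0.05), scaling without mt- genes (0.0611), no filter (0.0678), limma voom (0.0796) and both TPM scales (0.0625 and 0.059). Under macrophage scaling Ndufc2 was at -0.04 and Ndufa13 at 0.05, neither called.

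None of the 7 nuclear core subunits of complex I, which carry the flavin and the iron-sulfur clusters, was called, and their median log2 fold change was 0.01. Ndufs7, which holds the last iron-sulfur cluster before ubiquinone, had 46.42 ± 2.74 CPM (SD, n = 4) against 47.93 ± 3.99 CPM (0.05 ± 0.07, adjusted p = 0.713). Ndufs1, the largest core subunit, had 57.72 ± 4.21 against 59.13 ± 2.93 CPM (0.03 ± 0.07, adjusted p = 0.757). Under macrophage scaling 5 of the 7 (Ndufs1, Ndufs3, Ndufs7, Ndufs8 and Ndufv2) were called higher, and so were the accessory Ndufb8 and Ndufs5, beside 29.2% of all genes. Of the 8 Ndufaf assembly factors none was called, with fold changes from -0.24 (Ndufaf7, a methyltransferase) to 0.23 (Ndufaf4, which was called under macrophage scaling).

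Complex II, succinate dehydrogenase, is a further iron-sulfur enzyme and is wholly nuclear. Its 4 genes had negative fold changes under TMM and none was called. The iron-sulfur subunit Sdhb was at 104.3, 96.17, 99.09 and 103.4 CPM against 98.74, 88.97, 93.13 and 93.68 CPM (-0.11 ± 0.05, adjusted p = 0.201), with groups that overlap. The membrane anchor Sdhd was at 99.78 ± 0.977 against 95 ± 5.69 CPM (-0.07 ± 0.05, adjusted p = 0.407). Under macrophage scaling both were positive, at 0.18 and 0.21, and Sdhd (adjusted p = 0.0411) and Sdhc were called higher.

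All 9 nuclear members of complex III had negative fold changes under TMM, with a median of -0.14, and 1 was lower. Uqcrc2, a core protein on the matrix side of the complex, was at 98.02, 96.21, 96.67 and 88.61 CPM against 82.59, 82.37, 79.53 and 84.31 CPM. The groups did not overlap, and the log2 fold change was -0.21 ± 0.05 (adjusted p = 0.0296). It kept an adjusted p under 0.05 without the iron positive 3R or 5L, but not in the other fits that leave out a library, nor with library totals (adjusted p = 0.114), limma voom (0.0609) or either TPM scale (0.141 and 0.144), and it was 0.08 under macrophage scaling, not called. Its partner Uqcrc1 did not overlap between fractions either (67.8 to 71.06 against 59.68 to 63.87 CPM), with -0.15 ± 0.04 and an adjusted p of 0.0561. The member of this complex with the most transcripts per length was Uqcr10, at 383.8 and 345.7 TPM, whose difference of -0.20 ± 0.09 did not pass (adjusted p = 0.183). The soluble carrier Cycs, cytochrome c, was at 56.42 ± 7.03 and 54.15 ± 7.02 CPM (-0.06 ± 0.11, adjusted p = 0.764). Cox7a2l, described as a supercomplex factor of complexes III and IV, was at 177.5 to 207.7 against 155.4 to 174.9 CPM, without overlap (-0.23 ± 0.07, adjusted p = 0.052). It passed with the tag as a block (adjusted p = 0.0274). Whether its protein joins the complexes in these cells was not tested.

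The widespread nuclear subunits of complex IV were not called. Cox4i1, the regulatory subunit, was at 340.1, 296.7, 297.8 and 289.3 CPM against 293.4, 268.8, 281.3 and 269.9 CPM (-0.14 ± 0.07, adjusted p = 0.219), with groups that overlap only through the iron positive 3L. Cox5a, which binds a thyroid hormone metabolite, had the most negative difference among them (-0.26 ± 0.08, adjusted p = 0.0614, and 0.0131 with the tag as a block). In complex V none of 17 genes was called, at a median of -0.13, and Atp5c1, Atp5e and Atp5g2 passed as lower with the tag as a block (adjusted p = 0.0483, 0.0416 and 0.045). The catalytic beta subunit Atp5b, the most abundant nuclear member per length at 1390 and 1268 TPM, had a log2 fold change of -0.14 ± 0.07 (adjusted p = 0.238). The ring of ATP synthase is encoded by Atp5g1, Atp5g2 and Atp5g3, which make the same mature protein. Their differences were -0.16 ± 0.06, -0.31 ± 0.20 and -0.10 ± 0.06, none called, and Atp5g1 and Atp5g3 were 0.12 and 0.19 under macrophage scaling. Atp5f1 and Atp5j of this complex and Cox6c of complex IV were called higher under that scaling.

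Of the 5 tissue-restricted members tested, 1 was called. Ndufa4l2, a hypoxia-inducible relative of the complex IV subunit Ndufa4 that is also known from pericytes, was at 0.1768, 0.6336, 0.3582 and 0.1739 CPM in the iron negative libraries 3L, 3R, 4R and 5L. In the iron positive libraries it was at 1.047, 8.166, 7.194 and 1.981 CPM. Every iron positive value was higher than every iron negative one, and 3R and 4R stood far above 3L and 5L. It had 4 to 13 counts in the iron negative libraries and reached the count filter only with the iron positive ones, unlike the other 90 nuclear members tested, so that it had to differ to be tested at all and its p adds little to the values. The log2 fold change was 3.77 ± 0.76 (adjusted p = 0.0204), and the call was lost without the iron positive 4R (3.46), without any 1 of the 4 iron negative libraries (3.54 to 4.25), with limma voom (3.45) and on log2(TPM + 1) (2.18). The pericyte gene Rgs5 had the same order of libraries in the iron positive fraction, at 15.5, 193.4, 177.6 and 44.99 CPM, and the pericyte and smooth muscle list, the endothelial list and the fibroblast and fibrosarcoma list as wholes all had this order, with 3R highest, then 4R, 5L and 3L. The part of any of these cells in the value of Ndufa4l2 was not tested. Ndufa4 itself was at 37.07 ± 1.92 and 41.22 ± 5.7 CPM (0.15 ± 0.10, adjusted p = 0.325), and was called higher under macrophage scaling (0.43, adjusted p = 0.0212).

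None of the other tissue-restricted genes was called. Cox4i2, the lung form of Cox4i1, which responds to oxygen, was at 2.784, 2.876, 3.448 and 2.609 CPM against 1.994, 5.444, 4.796 and 2.994 CPM (0.38 ± 0.31, adjusted p = 0.444), with 3R and 4R again the highest. The heart and muscle forms Cox6a2 (0.8059 ± 0.243 and 1.13 ± 0.165 CPM, adjusted p = 0.276) and Cox7a1 (1.972 ± 0.507 and 2.508 ± 0.847 CPM, adjusted p = 0.462) overlapped between the fractions, as did the testis form Cox6b2 (1.64 ± 0.351 and 1.321 ± 0.427 CPM, adjusted p = 0.494). Their widespread partners Cox6a1, Cox6b1, Cox7a2, Cox7b and Cox8a had log2 fold changes of -0.11, -0.13, -0.03, -0.06 and -0.11, and of 0.17, 0.15, 0.26, 0.22 and 0.17 under macrophage scaling. Of these 5, Cox7b was called under that scaling.

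**Figure D4:**
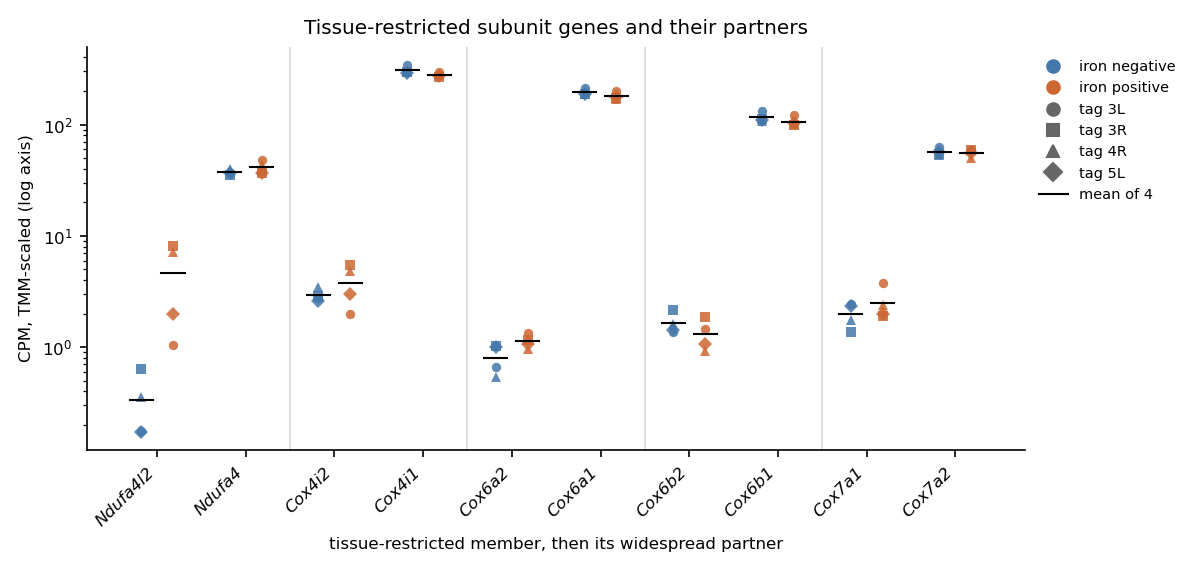
TMM-scaled CPM (log axis) of 5 tissue-restricted subunit genes, each followed by its widespread partner, with 1 point per library and a bar at the mean of 4. Ndufa4l2 is the only pair member shown whose fractions do not overlap (at most 0.6336 CPM in iron negative, at least 1.047 CPM in iron positive).

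Set against each other within each library, the 2 genomes' shares differed between the fractions. The ratio of summed mt- to summed nuclear counts, which needs no scaling between libraries, was 2.214, 2.088, 2.575 and 2.305 in the iron negative libraries 3L, 3R, 4R and 5L, and 4.054, 4.467, 3.308 and 3.008 in the iron positive libraries. The groups did not overlap. The mean log2 ratio was 1.20 ± 0.13 (SD, n = 4) and 1.87 ± 0.26, a difference of 0.68 or 1.6-fold, and the same-tag differences were 0.87, 1.10, 0.36 and 0.38. No p-value is given, since this is a score over chosen members. Within the complexes, mt-Cytb over the nuclear complex III counts was 1.867 ± 0.183 in the iron negative and 4.129 ± 1.2 in the iron positive libraries, mt-Nd over nuclear complex I 2.174 ± 0.26 and 4.215 ± 1.05, and mt-Co over nuclear complex IV 6.706 ± 0.575 and 9.261 ± 0.884, all without overlap. For complex V the ratio was 0.6344 ± 0.0458 and 1.043 ± 0.327, and the iron positive library 4R (0.6493) lay within the iron negative range.

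**Figure D5:**
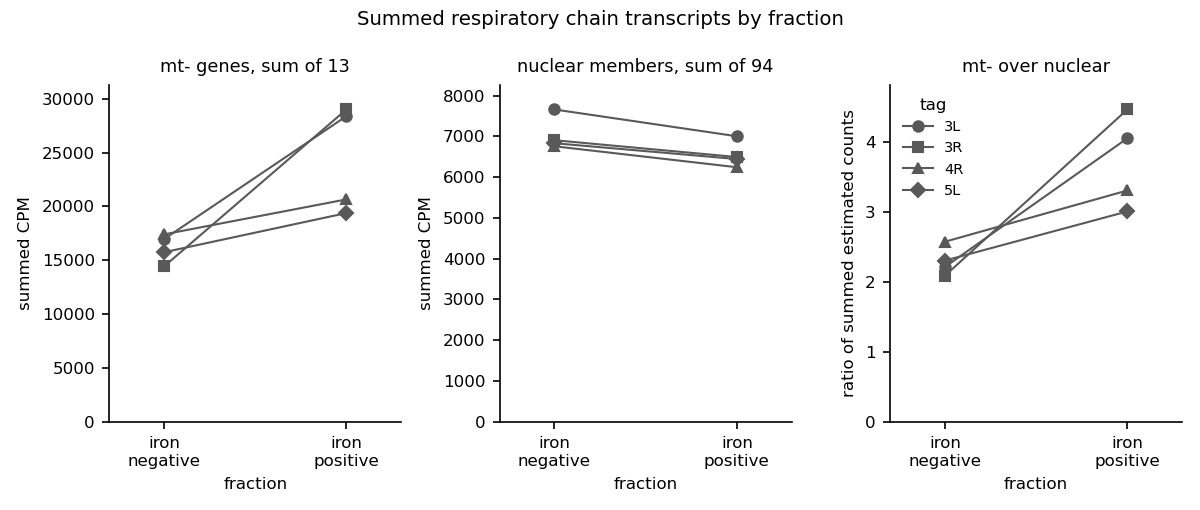
Summed TMM-scaled CPM of the 13 mt- genes (left) and of the 94 nuclear members (middle), and the ratio of their summed estimated counts (right), in the 2 fractions, with a line joining the libraries of each tag. The mt- sum is 14420 to 17400 CPM in iron negative and 19380 to 29000 CPM in iron positive libraries, and the ratio is higher in iron positive for all 4 tags.

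Skeletal muscle markers were read beside the mitochondrial mRNAs. The 10 tested of 12 listed were called higher, but 8 of these 10 reached the count filter only with the iron positive libraries, so that the count of calls was largely fixed by the filter. Their summed level was 3.045 to 5.898 CPM in the iron negative and 59.36, 73.85, 33.05 and 22.8 CPM in the iron positive libraries 3L, 3R, 4R and 5L. Among the iron positive libraries this is the same order as that of the mt- share of counts (2.749%, 3.05%, 2.142% and 1.967%). No other marker list had that order there, and the lists were chosen with earlier results of these data known. The endothelial, the pericyte and smooth muscle, and the fibroblast and fibrosarcoma lists, with higher sums, ran 3R, 4R, 5L and 3L from high to low. The iron negative libraries did not show a shared order of muscle sums and mt- shares. Their muscle sums were 3.845, 5.898, 3.045 and 3.348 CPM for 3L, 3R, 4R and 5L. Their mt- shares were 1.594%, 1.45%, 1.757% and 1.527%. Acta1, the muscle actin, was at 9.509 to 27.07 CPM in the iron positive libraries, and Mb was at 0 in all iron negative libraries. The muscle-type chain members were not called, but they had few counts. Cox6a2, with 12 to 27 counts per library, had a log2 fold change of 0.48 ± 0.28 and was higher in iron positive for 4 of 4 tags. Cox7a1, with 28 to 75 counts, had 0.34 ± 0.29 and was higher for 3 of 4 tags. Both overlapped between the fractions, and Cox8b was at most 0.09969 CPM and not tested. The part of muscle RNA in the mt- values was not tested.

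Nuclear genes that make or regulate the mitochondrial transcripts showed few calls. Of 15 tested genes of mitochondrial transcription and replication none was called (median log2 fold change -0.02). The polymerase Polrmt was at 22.93 ± 2.37 and 22.97 ± 2.54 CPM and the packaging and transcription factor Tfam at 18.3 ± 1.36 and 18.51 ± 1.4 CPM (adjusted p = 0.987 and 0.92). None of 16 genes of mitochondrial RNA processing and stability was called (median -0.02), and Lrpprc, which stabilises mitochondrial mRNAs, was at 41.74 ± 2.02 and 40.89 ± 2.33 CPM (adjusted p = 0.775). Of 9 regulators of mitochondrial content 1 was lower. This was Nrf1, a transcription factor of nuclear respiratory genes, at 33.98, 34.95, 32.78 and 34.57 CPM against 27.61, 31.45, 28.56 and 28.92 CPM, without overlap (-0.23 ± 0.06, adjusted p = 0.0373). Its call was lost without the iron negative library 3L, 3R or 4R, where no gene at all was called. Under macrophage scaling the medians of these 3 lists were 0.27, 0.26 and 0.22, near that of all genes. The coactivator Ppargc1b was at 5.118 to 8.553 against 3.226 to 6.472 CPM (-0.67 ± 0.25, adjusted p = 0.109, and 0.0264 with the tag as a block).

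Among other mitochondrial genes, 1 of 37 assembly factors outside the prefixes was lower, the complex IV factor Higd2a (-0.17 ± 0.05, adjusted p = 0.0429, and 0.0684 with the tag as a block). The tricarboxylic acid cycle had 2 of 15 lower, Idh3g (-0.25 ± 0.06, adjusted p = 0.027) and Dlst (-0.20 ± 0.05, adjusted p = 0.044). Of 7 adenine nucleotide carriers and porins, a list that includes related carriers, 1 was lower (2 with the tag as a block), the inner membrane carrier Ucp2, at 1810, 1605, 1629 and 1758 CPM against 1312, 1049, 1052 and 1364 CPM without overlap (-0.51 ± 0.11, adjusted p = 0.0238). Of 78 mitochondrial ribosome genes 1 was lower (Mrpl24, adjusted p = 0.044, and 0.0706 with the tag as a block), and of 84 cytosolic ribosome genes 1 (Rpl29, adjusted p = 0.0478), with 11 lower under the tag as a block. Glycolysis had 1 of 19 higher, Eno2 (1.46 ± 0.30, adjusted p = 0.0204), and 7 with the tag as a block. Beside these block counts, 12.8% of all genes were called higher and 9.39% lower with the tag as a block. The main-fit calls in these lists were also lost without the iron negative library 3L, 3R or 4R, where no gene was called. Under TMM the list medians were -0.03, -0.06, -0.01, -0.04, -0.19 and 0.30 in this order of lists, and under macrophage scaling all 6 were positive (0.25, 0.23, 0.27, 0.24, 0.11 and 0.57).

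The promoters of the nuclear members were searched for 3 motifs known from respiratory genes, on both strands of 300 bases (250 before and 50 after the start, RefSeq, GRCm38.p6). Promoters were listed for 74 of the 94 members. The NRF1 core GCGCANGCG was found in 23 of the 74 (31.1%), against 7.03% of 27025 genes. The core of the ETS family, to which Gabpa belongs, CCGGAAG, was found in 18 (24.3% against 9.93%), and the YY1 motif AAGATGGCG in 8 (10.8% against 1.64%). The last letters of the ETS core, AAG, can also be the first of the YY1 motif. At least 1 of the 3 was found in 40. The 27025 are all genes with a listed promoter, tested here or not, whereas 91 of the 94 nuclear members were tested. The sets were not matched for expression or base content. The median log2 fold change was -0.08 with and -0.09 without the NRF1 core, -0.08 with and -0.10 without the ETS core, and -0.06 with (8 members) and -0.10 without the YY1 motif. Cox6a1, an abundant complex IV subunit, is shown because its promoter holds the NRF1 core in 2 places and the ETS core in 1, all in capitals. In the first place the NRF1 letters are spelled on both strands in overlapping matches, which were counted once (chr5:115348909-115349208, - strand).
Cox6a1: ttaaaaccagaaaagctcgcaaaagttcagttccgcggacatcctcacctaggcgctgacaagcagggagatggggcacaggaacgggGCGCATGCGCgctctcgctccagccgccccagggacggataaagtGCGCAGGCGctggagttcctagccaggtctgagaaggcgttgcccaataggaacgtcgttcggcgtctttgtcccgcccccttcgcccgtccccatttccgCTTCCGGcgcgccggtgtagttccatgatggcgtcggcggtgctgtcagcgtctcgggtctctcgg
The listed promoter windows of Ndufc2 (chr7:97399753-97400052, + strand) and Ndufa13 (chr8:69901971-69902270, - strand), the 2 complex I genes called lower, are also shown. None of the 3 motifs is spelled in these windows, which is common, since only 40 of the 74 members held any. The Ndufa13 window lies inside the gene as annotated by GENCODE (chr8:69894180-69902558). It does not cover the outer 5' end of that annotation.
Ndufc2: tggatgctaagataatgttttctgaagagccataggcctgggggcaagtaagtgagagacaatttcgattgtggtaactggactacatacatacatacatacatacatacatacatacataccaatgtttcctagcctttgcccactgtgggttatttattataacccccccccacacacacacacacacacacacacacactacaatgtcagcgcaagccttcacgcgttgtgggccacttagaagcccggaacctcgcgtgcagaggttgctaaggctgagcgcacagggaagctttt
Ndufa13: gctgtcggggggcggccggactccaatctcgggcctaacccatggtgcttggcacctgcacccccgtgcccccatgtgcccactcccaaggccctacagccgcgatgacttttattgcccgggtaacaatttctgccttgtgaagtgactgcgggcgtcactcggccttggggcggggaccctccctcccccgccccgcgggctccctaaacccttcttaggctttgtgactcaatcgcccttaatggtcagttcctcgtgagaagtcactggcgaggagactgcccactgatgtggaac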

How the data were processed

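Each of the 8 deposited tables comes from 1 library. The authors quantified transcripts with kallisto 0.46.2 (build mm10), per the submitters' processing notes. Per the file headers, the authors' tables hold estimated counts, which are not normalized, TPM, adjusted for transcript length and depth, and transcript lengths. The transcript set release and the kind of RNA selection are not given in the sources used here.

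Transcripts were joined to GENCODE release 21 for mouse without version, where 116728 of 119414 matched, and the unmatched held 0.888% to 0.961% of counts. Estimated counts were summed per gene and rounded. Of 108 identifiers that met the symbol rule, 1 of 2 for Atp5o had no count and was set aside. Strand was not used, and reads shared with nuclear copies of mitochondrial DNA or with pseudogenes of nuclear members cannot be separated. Library totals were 19.04 M to 24.31 M, and errors are SDs across the 4 libraries of a fraction or SEs of fold changes.

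Genes kept by filterByExpr were tested with the quasi-likelihood test of edgeR 4.0.16 (R 4.3.3) on fraction alone with TMM scaling, and p-values were adjusted by Benjamini-Hochberg over all 13343 genes. Adjusted p-values in the text are from edgeR unless another tool is named. The steps were tested on simulated data. CPM use TMM-scaled totals. Alternatives were relative log expression, library totals, TMM over the macrophage markers, TMM without mt- genes, no filter, DESeq2 1.42.0, voom of limma 3.58.1, limma on log2 of TPM plus 1 or 0.1, the tag as a block, and leaving out each library.

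Same-tag libraries deviated together from their fraction means (r = 0.55, 0.56, 0.28 and 0.34 for 3L, 3R, 4R and 5L, against at most 0.25 for other tags). For 4R this value is close to the highest of the other tags. The shared tags were taken as pairs only in the same-tag differences and in the alternative fit with the tag as a block. The main fit ignores them. No libraries agreed within counting noise. Members and lists were chosen with earlier results of these data known. The rule for named genes took all mt- members, the called nuclear members, tissue-restricted members with their partners, the 2 members with most TPM per complex, and called genes of the lists. Other members and list genes, such as Cox7a2l, Cox5a, Uqcrc1, Atp5b, Atp5c1, Atp5e, Ndufs1, Ndufs7, Ndufaf4, Ndufaf7, Polrmt, Tfam, Lrpprc and Ppargc1b, were named after their values were seen or for their role. Of the listed genes, Prorp, Fastkd4, Coa1 and Ahsp were not found by symbol.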

Additional observations from a re-analysis of the deposited data

Results flagged for a closer look

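Within a fraction, a library was marked when its gap to the nearest of the other 3 was, relative to the whole range, above Dixon's 95% critical value for 4 samples. This held for 11 of 110 groups of 4, where chance marks about 1 in 20, and the genes share libraries. In the iron negative fraction, library 3L stood above the others for 4 complex IV genes: Cox4i1 (340.1 CPM, others 289.3 to 297.8), Cox6a1 (212.9, others 187.1 to 188.7), Cox7b (90.37, others 79.69 to 80.55) and Cox8a (204.3, others 176.2 to 180). Its summed CPM of the nuclear members was also high, at 7659 against 6756 to 6905. In the iron positive fraction, 3L stood above the others for Cox6a1 (201.3 CPM, others 171.1 to 175.1), Cox6b1 (122.9, others 98.75 to 102.4) and Cox8a (186.8, others 164.5 to 167.2). Library 3L of each fraction thus carried 8 of the 11 marks, all of them high values of nuclear members.

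Cox8b was at 0.04874 CPM in the iron negative library 3R and at 0 in the other 3 of that fraction. In the iron positive fraction it was at 0.09969 CPM in 3L, 0.05041 CPM in 3R and 0 in the others. The mt-Atp share of mt- counts was 6.438% in the iron positive library 4R and 10.2% to 10.24% in the other 3. The ratio of mt-Cytb to nuclear complex III counts was 2.14 in the iron negative library 4R and 1.752 to 1.806 in the others.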

How the results depend on the processing

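The count of mt- genes called higher (6) was 6 to 8 under 8 alternatives and 12 under macrophage scaling and under DESeq2, and 0 to 10 without 1 library. The count of nuclear members called higher (1) was 16 under macrophage scaling, 0 with limma voom and 0 on log2(TPM + 1), and 0 to 1 without 1 library. The count called lower (3) was 1 with library totals, 0 under macrophage scaling, 8 with DESeq2, 0 with limma voom, 1 on log2(TPM + 1), 1 on log2(TPM + 0.1) and 8 with the tag as a replicate block, and 0 to 4 without 1 library. The cause was not tested, except that macrophage scaling multiplies all genes of a library by the same factor. Over all genes, library totals gave 1172 higher and 362 lower calls, against 1133 and 695. DESeq2 gave 1703 and 1070, macrophage scaling 3893 and 63, and limma voom 189 and 273. The log2 ratio of mt- to nuclear counts differed by 0.68, and by 0.584 to 0.774 without 1 library, 0.735 on TPM, 0.641 without the overlapping mRNAs and 0.639 with medians, and the paired mean over tags (replicate block) was 0.679 ± 0.365 (SD, n = 4). In the paired fit the calls that changed among the members are those given in the results, and no other. Of 630 values of 35 named members, 519 kept direction and side of the threshold, 63 lost a call, 23 gained 1 and 25 turned sign. Under macrophage scaling 14 turned: Atp5g1 0.121, Atp5g3 0.186, Cox4i1 0.148, Cox6a1 0.172, Cox6b1 0.149, Cox7a2 0.258, Cox7b 0.221, Cox8a 0.173, Cycs 0.218, Ndufa13 0.052, Sdhb 0.175, Sdhd 0.207, Uqcr10 0.086 and Uqcrc2 0.076. Cox7a2 turned to 0.028 with library totals, 0.041 and 0.042 on the TPM scales, 0.029 without the iron negative 3L and 0.025 without the iron positive 4R (-0.066 to 0.029 without 1 library). Cycs turned to 0.006 on both TPM scales, 0.016 without the iron negative 3L and 0.002 without the iron positive 4R (-0.151 to 0.016), and Cox7b to 0.007 on both TPM scales. Depth limits members with few counts, such as Ndufa4l2, with 4 to 13 counts in the iron negative libraries.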

Other observations

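Several genes of oxidative phosphorylation fall outside the symbol rule and were looked at after the members. The acyl carrier Ndufab1 was at 45.34 ± 5.07 CPM (SD, n = 4) in the iron negative and 45.3 ± 4.27 CPM in the iron positive libraries (log2 fold change 0.00 ± 0.10, adjusted p = 0.993). The ATP synthase subunit gene Usmg5 was at 45.37 ± 4.05 and 44.75 ± 2.26 CPM (adjusted p = 0.881), and the ATP synthase inhibitor Atpif1 at 120.5 ± 6.61 and 115.5 ± 13.2 CPM (adjusted p = 0.666). Ndufb1-ps, which the annotation lists as a non-coding gene, was at 40.64 ± 7.03 and 37.54 ± 9.34 CPM (adjusted p = 0.713). None of these 4 passed the threshold in edgeR.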
